A study of Mus musculus with 8 samples.

Results

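The genes described here are the collagens, the laminins and the proteins that join them in basement membranes, measured in mouse pancreatic islets with and without the insulin-degrading enzyme gene Ide. Members were all protein-coding genes whose symbol has the form of a collagen chain (such as Col4a1) or of a laminin α, β or γ chain (Lama, Lamb or Lamc with a number), together with Nid1, Nid2, Hspg2 and Fn1. This rule took 59 of the 55487 gene identifiers in the tables: 44 collagen genes, 11 laminin genes and the 4 named genes. It uses no measured value.

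RNA sequencing was done on hand-picked islets of C57BL/6J mice that carried either an intact Ide gene (Ide+/+, 5 libraries) or none (Ide-/-, 3 libraries). Both groups received the same diet, with 60 kcal% fat, for 2 weeks from 10 weeks of age, and all samples carry a female label. The labels call the samples biological replicates but do not give the number of animals behind each one, so p-values measure the spread between these samples. How the Ide-/- allele was made and whether littermates served as controls is not given in the sources used here, and no group on another diet was analysed here.

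Basement membranes are thin sheets of matrix under epithelial cells and around blood vessels. Laminin trimers, each of an α, a β and a γ chain, and a network of type IV collagen form their scaffolds, and the nidogens and perlecan join both. In the mouse islet the basement membrane lies mainly along the capillaries, whose endothelial cells make much of it, and a capsule with fibrillar collagen separates the islet from the surrounding exocrine tissue. Ducts and other epithelia have membranes of their own, with laminin chains such as Lamb3 and the anchoring fibril collagen Col7a1.

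The libraries held 7143415 to 33371642 counts, of which the members took 680 to 8330. The targeted gene Ide had 256 to 765 counts in the Ide+/+ libraries and 4 to 7 in the Ide-/- libraries. The libraries differed in tissue make-up along with genotype: 28 acinar marker genes, those of the enzyme-secreting cells around the islets, took 25.2% to 43.4% of counts in Ide+/+ and 0.778% to 1.75% in Ide-/-, and all 28 were lower in Ide-/-. Genotype and the amount of exocrine RNA therefore cannot be told apart in this design. Levels below are CPM, counts scaled to a common library size with edgeR's TMM factors, which ranged from 0.405 to 2.06. Ide+/+ replicate 1 stood apart: its members summed to 68.1 CPM against 160 to 212 CPM in the other Ide+/+ libraries, and it had 692 Xist counts and no count of the Y-linked Ddx3y. The other 7 libraries had 503 to 2139 Ddx3y counts and at most 11 Xist counts, which goes against their female label. Ide+/+ replicates 2 and 3 were far more alike than any other pair, at 1.9 chi-square per gene over 8463 genes against 10.2 to 33.3 for other Ide+/+ pairs and 6.51 to 13.1 for Ide-/- pairs. They still differed beyond the sampling noise of counts, which 2 libraries of a shared source could also do. Whether they share a source is not given in the labels. If they do, the Ide+/+ group holds fewer independent samples than its 5 libraries. They were kept as 2 libraries.

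Most of the members showed no detected difference between the genotypes. Of the 59 genes, 44 passed the filter on low counts and 5 of those passed the test, which was edgeR's quasi-likelihood test with Benjamini-Hochberg adjustment over 16266 genes at an adjusted p under 0.05. Col27a1 and Col16a1 rose in Ide-/- islets, and Lamb3 and Col7a1 were among the members that fell. The 2 higher genes are 4.55% of the tested members, against 10.4% of all tested genes called higher, and the 3 lower genes are 6.82%, against 10.6% of all tested genes called lower. Both shares lie below the background under this scaling but rest on few genes, and the split depended on the scale. With libraries scaled to secretory granule genes, 1 member was higher (2.27%, against 3.36% of all tested genes) and 4 were lower (9.09%, against 12.5%). Scaling to endothelial genes called 1 higher (2.27%, against 1.78%) and 2 lower (4.55%, against 2.66%), too few to tell from the background. TPM is the deposited length-corrected share of each library. On log2(TPM + 1), 13 were higher (32.5% of 40 tested, against 29.2%) and 2 lower (5.0%, against 2.05%). The higher share lies near the background, and the lower share rests on few genes. DESeq2 called 3 higher (5.17%, against 6.5%) and 4 lower (6.9%, against 7.39%). The median log2 fold change of the tested members was −0.05, against −0.01 over all tested genes, with 20 members on the positive and 24 on the negative side. In 3 members (6.82%) every Ide-/- library lay above every Ide+/+ library, where 17.4% of all tested genes did, and in 3 others (6.82%) every Ide-/- library lay below, where 15.6% of all tested genes did.

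**Figure D1:**
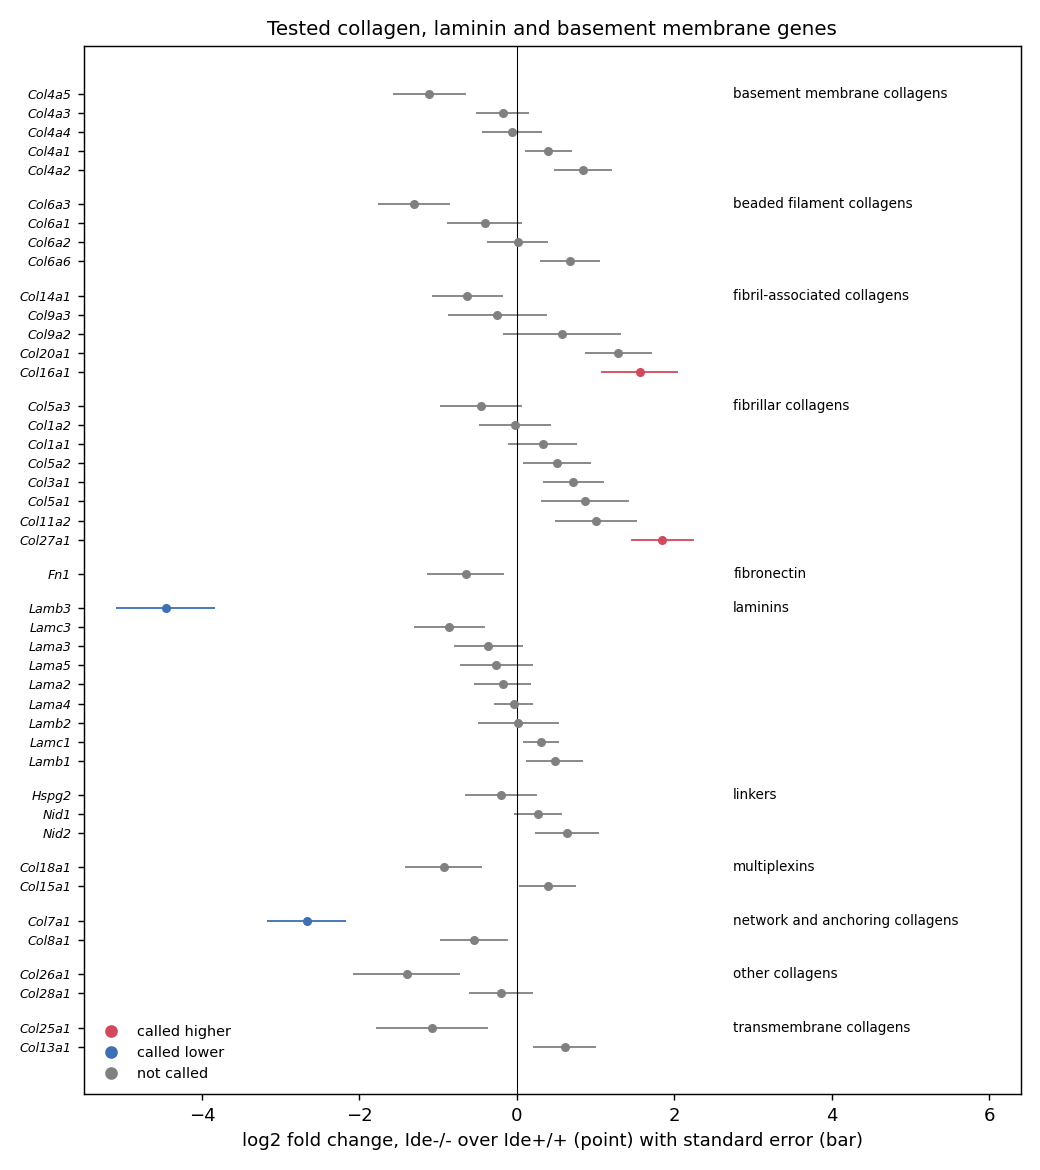
Log2 fold changes of 43 of the 44 tested members (Ide-/- over Ide+/+, edgeR), ordered by role group, with bars of 1 standard error and the called genes marked. Col27a1 and Col16a1 stand to the right, and Lamb3 and Col7a1 to the left, of a set of 44 whose median was −0.05.

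The 15 members that did not pass the filter had between 0 and 41 counts in all 8 libraries together. They were Col2a1, Col4a6, Col6a4, Col6a5, Col8a2, Col9a1, Col10a1, Col11a1, Col12a1, Col17a1, Col19a1, Col22a1, Col23a1, Col24a1 and Lama1. Col22a1 had no count in any library. These include the cartilage collagens Col2a1, Col9a1, Col10a1 and Col11a1 and the hemidesmosome collagen Col17a1, and with no low-count filter none of the 14 that had a count was called.

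Lamb3 encodes the β chain of laminin-332, the laminin that epithelial cells such as those of skin and ducts anchor to, and Col7a1 encodes the collagen of the anchoring fibrils that bind this laminin. Both fell in Ide-/- islets. The stretch of 250 bases before each annotated start, from RefSeq on GRCm38.p6, is shown for Lamb3 and Col7a1, the members with the largest falls, and for Col27a1, the member with the largest rise, to give the sequence context of the genes the results turn on. Lower case is used throughout except that capitals mark each match to the GC box GGGCGG. The windows are chr1:193301744-193301993 (plus strand) for Lamb3, chr9:108953336-108953585 (plus strand) for Col7a1 and chr4:63215162-63215411 (plus strand) for Col27a1. The Lamb3 and Col27a1 windows each lie before a RefSeq start that is inside the GENCODE span of the gene. A second RefSeq window of Lamb3, which shares 149 bases with a Lamb3 exon, is not shown.
Lamb3: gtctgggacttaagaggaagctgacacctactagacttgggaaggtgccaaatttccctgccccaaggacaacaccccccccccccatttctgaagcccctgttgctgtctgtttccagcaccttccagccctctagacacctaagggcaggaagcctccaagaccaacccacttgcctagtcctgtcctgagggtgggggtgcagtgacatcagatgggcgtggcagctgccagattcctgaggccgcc
Col7a1: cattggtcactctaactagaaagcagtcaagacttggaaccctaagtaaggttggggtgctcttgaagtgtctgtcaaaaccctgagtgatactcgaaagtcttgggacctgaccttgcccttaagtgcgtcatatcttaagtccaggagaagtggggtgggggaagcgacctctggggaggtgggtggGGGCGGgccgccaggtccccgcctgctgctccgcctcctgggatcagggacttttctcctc
Col27a1: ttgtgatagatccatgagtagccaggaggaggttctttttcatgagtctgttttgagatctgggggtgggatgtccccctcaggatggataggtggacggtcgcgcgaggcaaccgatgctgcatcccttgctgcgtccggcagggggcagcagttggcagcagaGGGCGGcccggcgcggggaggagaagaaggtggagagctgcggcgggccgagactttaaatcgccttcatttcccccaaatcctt
Both strands were searched for 3 motifs: the AP-1 motif TGANTCA, the GC box GGGCGG and the TATA motif TATAAA. A GC box lay 61 bases before the start in Col7a1 and 85 bases before it in Col27a1. Lamb3 held none of the 3, and TGANTCA and TATAAA were in none of the 3 windows. Of all 32536 windows of this length, 33.0% held GGGCGG, 6.73% held TGANTCA and 12.3% held TATAAA. A match describes the letters of the window only. RefSeq windows were found for 42 of the 59 members and for 4 of the 5 called members.

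Lamb3 (ENSMUSG00000026639, chromosome 1, 193207699 to 193343878) measured 1.30, 1.76, 0.89, 2.83 and 1.29 CPM in Ide+/+ replicates 1 to 5 and 0.08, 0.08 and 0.00 CPM in Ide-/- replicates 1 to 3. The groups did not overlap. These levels rest on 167 counts in the Ide+/+ libraries and 5 in the Ide-/- libraries, a pooled CPM ratio of 0.0435 with a 95% exact interval of 0.0139 to 0.104 that covers counting error only. The fitted log2 fold change was −4.46 ± 0.63 (SE, n = 5 and 3, edgeR adjusted p = 0.0010). Lamb3 spans the opposite-strand genes G0s2 and Hsd11b1, sharing 42442 bases with the latter, and since the strand setting of the counting is not given in the sources used here, reads from shared bases cannot be told apart. Neither neighbour passed the test, with log2 fold changes of 0.52 ± 0.55 for Hsd11b1 and −0.03 ± 0.49 for G0s2.

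Lama3, which encodes the α chain of the trimer that holds Lamb3 and was singled out after its values were seen, did not pass the test. It measured 0.80, 5.65, 4.83, 3.53 and 6.22 CPM in the Ide+/+ libraries, compared with 2.90, 2.93 and 4.31 CPM in the Ide-/- libraries, and the groups overlapped (log2 fold change −0.36 ± 0.44, adjusted p = 0.59).

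Col7a1 (ENSMUSG00000025650, chromosome 9, 108953586 to 108984875) measured 3.61, 3.87, 2.63, 11.3 and 7.83 CPM in Ide+/+ replicates 1 to 5 and 0.86, 0.94 and 0.92 CPM in Ide-/- replicates 1 to 3. The Ide-/- libraries lay close together below all Ide+/+ libraries, which spread widely, with replicates 4 and 5 the highest. The log2 fold change was −2.67 ± 0.50 (SE, edgeR adjusted p = 0.0043). Lamb3 and Col7a1 were called lower under all 20 settings tried. In the fits on counts their log2 fold changes ran from −4.77 to −4.17 and from −3.04 to −1.89. The smallest falls, −0.33 and −1.36, were differences of log2(TPM + 1), where the added 1 narrows the differences of low genes.

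Duct cell markers were lower in the same libraries as these epithelial matrix genes. The 9 duct markers summed to 812 to 2295 CPM in Ide+/+, against 165 to 221 CPM in Ide-/-. Of the 9, 7 were called lower (77.8%, against 10.6% of all tested genes), with a list median of −2.32. None of the 9 was at 0 in any library. Among them the duct keratin Krt19 measured 9.52 to 30.2 CPM in Ide+/+, against 1.42 to 1.83 CPM in Ide-/-, while Krt7 (−0.16) did not pass the test. The part of duct RNA in the lower Lamb3 and Col7a1 levels was not tested. In bulk islets, fewer cells of a type and less RNA per cell cannot be told apart.

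**Figure D2:**
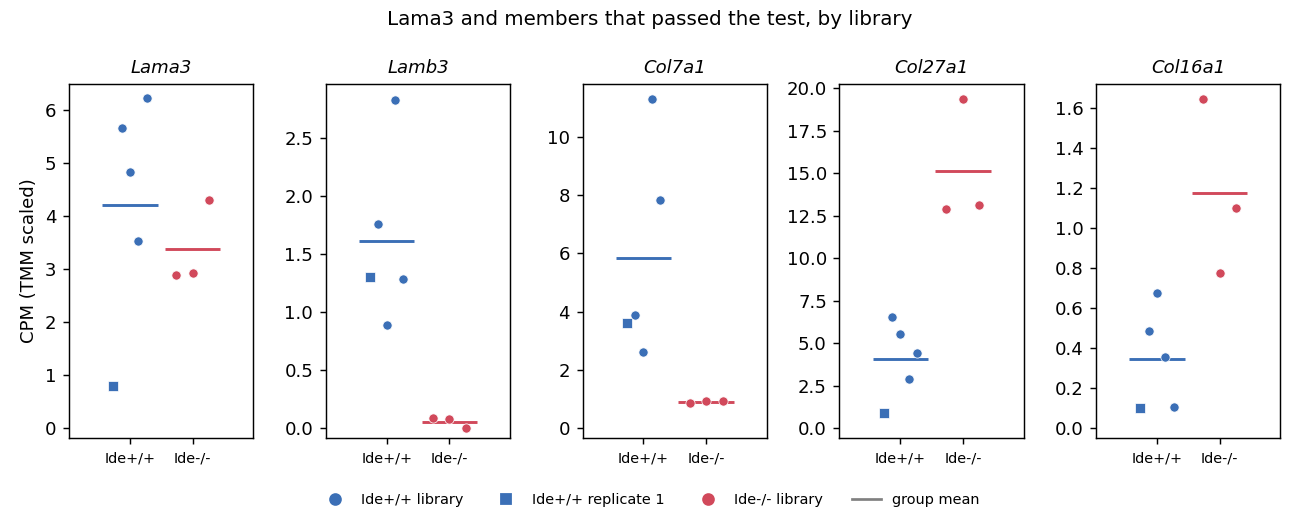
CPM (linear axis) of Lama3 and of 4 members that passed the test, 1 point per library for 5 Ide+/+ and 3 Ide-/- libraries, with lines at the group means and a square for Ide+/+ replicate 1. The groups overlap in Lama3 and in none of the other 4 genes: Col27a1 and Col16a1 lie higher in Ide-/-, and Lamb3 and Col7a1 lie lower.

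None of the laminin chains known from endothelial basement membranes passed the edgeR test. Lama4 and Lama5 encode the α chains of the endothelial laminins 411 and 511, Lamb1 and Lamb2 the β chains and Lamc1 the γ chain of most laminins. Lama4 measured 3.41, 6.34, 7.78, 6.54 and 6.97 CPM in the Ide+/+ libraries, compared with 5.23, 5.98 and 7.15 CPM in the Ide-/- libraries. Lamc1, the laminin gene with the highest mean TPM over all libraries (3.45), measured 5.51, 8.96, 9.03, 7.83 and 11.3 CPM against 9.94, 8.99 and 12.9 CPM. The groups overlapped in both genes, with log2 fold changes of −0.04 ± 0.25 for Lama4 and 0.31 ± 0.23 for Lamc1. On log2(TPM + 1), limma called Lamc1 higher (1.08, adjusted p = 0.0269), where all genes shifted by a median of 0.44. Lama5 measured 0.50, 3.72, 3.48, 2.36 and 4.29 CPM against 2.70, 1.75 and 2.93 CPM (log2 fold change −0.26). For Lamb1 the values were 2.20, 7.38, 6.72, 6.12 and 7.83 CPM against 6.18, 6.39 and 13.5 CPM (0.48). Lamb2, a β chain also found at synapses and in kidney, measured 0.80, 8.73, 7.36, 6.01 and 9.33 CPM against 4.46, 5.12 and 10.7 CPM (0.02). Ide+/+ replicate 1 was the lowest library in Lama4, Lama5, Lamb1, Lamb2 and Lamc1. Of the 11 laminin genes, 10 were tested and 2 were lower (20.0%, against 10.6% of all tested genes), with a median of −0.22.

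The scale of measurement mattered for Lama4. RSEM gives each gene an effective length, averaged over the transcripts it assigns reads to, and TPM divides by it. For Lama4 this length was 2971 to 5910 bases in the Ide+/+ libraries and 1455 to 2006 bases in the Ide-/- libraries. On TPM, Lama4 was higher in Ide-/- by 1.35 on the log2(TPM + 1) scale (limma adjusted p = 0.00778), where all genes shifted by a median of 0.44. On CPM its log2 fold change was −0.04 ± 0.25, which gives no direction. A difference was thus called on TPM and not on CPM. The part of the effective length in this was not tested.

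Type IV collagen, the network-forming collagen of every basement membrane, was tested through 5 of its 6 chains. None of these was called by edgeR, with 2 (Col4a2 and Col4a5) at an unadjusted p under 0.05, and none was called by DESeq2 or limma-voom. On log2(TPM + 1), limma called Col4a1 (1.13, adjusted p = 0.0338) and Col4a2 (1.13, adjusted p = 0.0228) higher, where all genes shifted by a median of 0.44. Col4a1 and Col4a2 encode the α1 and α2 chains of the form found in most membranes, and lie head to head on chromosome 8 with a 22-base overlap at their starts. Col4a1 measured 5.01, 15.7, 14.0, 11.7 and 12.5 CPM in Ide+/+ replicates 1 to 5 and 14.4, 12.7 and 20.3 CPM in the Ide-/- libraries, a log2 fold change of 0.40 ± 0.30 (adjusted p = 0.37). Col4a2 measured 2.91, 14.9, 13.4, 10.5 and 11.2 CPM in Ide+/+, against 17.2, 15.7 and 24.7 CPM in Ide-/-, with no overlap between the groups (log2 fold change 0.84 ± 0.37, adjusted p = 0.12). Replicate 1 was the lowest of the Ide+/+ libraries in both chains, and without it Col4a2 passed the test at 0.60 ± 0.19 (adjusted p = 0.0419), while Col4a1 stayed at 0.21 ± 0.19 (adjusted p = 0.442). The chains of the specialised α3, α4 and α5 network, known from kidney, measured log2 fold changes of −0.18 for Col4a3, −0.06 for Col4a4 and −1.11 ± 0.46 for the X-linked Col4a5 (adjusted p = 0.11). Without Ide+/+ replicate 1, Col4a5 passed the test at −1.27 (adjusted p = 0.0433).

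None of the linkers of the basement membrane was called by edgeR. Nid1, which joins laminin to type IV collagen, measured 4.31, 12.8, 13.9, 11.4 and 10.9 CPM in the Ide+/+ libraries, compared with 10.6, 11.3 and 17.2 CPM in the Ide-/- libraries (log2 fold change 0.27, adjusted p = 0.57). Its relative Nid2 measured 0.70, 4.91, 3.80, 3.53 and 3.33 CPM against 4.37, 4.31 and 7.33 CPM (0.64, adjusted p = 0.28). Hspg2, the heparan sulphate proteoglycan perlecan, measured 1.10, 12.1, 9.14, 7.95 and 9.12 CPM against 6.13, 7.0 and 7.98 CPM (−0.20, adjusted p = 0.79). Replicate 1 of Ide+/+ lay below all 7 other libraries in each of these genes, and none of the 3 had an unadjusted p under 0.05. Nid2 was called higher on log2(TPM + 1) (1.03, limma adjusted p = 0.02). Fn1, the adhesive glycoprotein fibronectin, measured 0.20, 1.53, 1.14, 0.82 and 1.82 CPM against 0.67, 0.81 and 0.64 CPM, with overlapping groups (−0.65, adjusted p = 0.37).

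**Figure D3:**
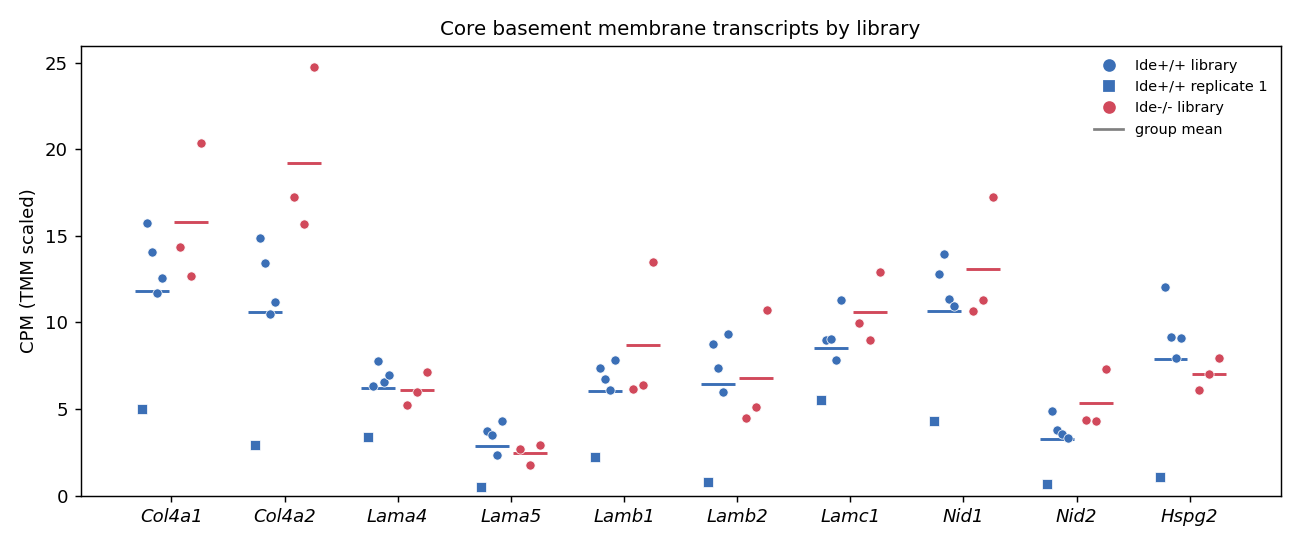
CPM (linear axis) of 10 core basement membrane members in 5 Ide+/+ and 3 Ide-/- libraries, 1 point per library, with horizontal lines at the group means and a square for Ide+/+ replicate 1. The square is the lowest point in each gene, and the groups overlap in all but Col4a2.

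Fibrillar collagens make the tensile fibres of connective tissue, and here 1 of the 8 tested genes was called, Col27a1, a short-helix fibrillar collagen first known from cartilage. Col27a1 (ENSMUSG00000045672, chromosome 4, 63214004 to 63334991) measured 0.90, 6.52, 5.55, 2.89 and 4.40 CPM in Ide+/+ replicates 1 to 5 and 12.9, 19.4 and 13.1 CPM in Ide-/- replicates 1 to 3. All 3 Ide-/- libraries lay above all Ide+/+ libraries. Its log2 fold change was 1.85 ± 0.40 (SE, edgeR adjusted p = 0.0086) on 511 and 1083 counts. It was called higher under all 20 settings, at 1.62 to 2.81, and came nearest to the threshold without Ide-/- replicate 2 (adjusted p = 0.0498). The value of 2.81 was a difference of log2(TPM + 0.1).

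The collagens of the common fibres did not pass the test. Col3a1 measured 2.81, 12.9, 11.4, 5.48 and 9.55 CPM in Ide+/+, against 9.86, 12.8 and 20.0 CPM in Ide-/- (log2 fold change 0.72, adjusted p = 0.21). Type I collagen, the main collagen of scars, is built from Col1a1 and Col1a2. Col1a1 measured 0.60, 4.45, 3.95, 2.06 and 3.22 CPM against 2.70, 3.62 and 5.04 CPM (0.33, adjusted p = 0.63), and Col1a2 measured 1.10, 10.3, 10.6, 5.48 and 8.37 CPM against 6.10, 7.28 and 8.34 CPM (−0.02, adjusted p = 0.98). The groups overlapped in all 3 genes. Fibroblast and stellate cell markers, whose cells make such fibres, summed to 19.0 to 69.9 CPM in Ide+/+, against 25.9 to 48.5 CPM in Ide-/-, with 0 of 8 tested markers called by edgeR and 2 at an unadjusted p under 0.05. The fibrillar group had a median log2 fold change of 0.61 over its 8 tested genes, the remaining values running from −0.46 for Col5a3 to 1.01 for Col11a2.

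Fibril-associated collagens sit on the surface of fibres and do not form fibres alone. Col16a1 (ENSMUSG00000040690, chromosome 4, 130047840 to 130099283) measured 0.10, 0.48, 0.68, 0.35 and 0.11 CPM in the Ide+/+ libraries, compared with 1.64, 0.77 and 1.10 CPM in the Ide-/- libraries. The groups did not overlap, but the levels rest on 46 and 90 counts, with a single count each in Ide+/+ replicates 1 and 5. The log2 fold change was 1.56 ± 0.49 (SE, edgeR adjusted p = 0.042), and the call held in 11 of 20 settings. It was lost when Ide+/+ replicate 2 (adjusted p = 0.0547), 4 (0.088) or 5 (0.0624) was left out, and when Ide-/- replicate 1 (0.213), 2 (0.065) or 3 (0.0929) was left out. Col20a1, from the same group, measured 0.30, 0.56, 0.60, 0.82 and 0.21 CPM against 1.45, 0.77 and 1.83 CPM and narrowly missed the threshold (log2 fold change 1.29 ± 0.43, adjusted p = 0.051). It was called higher with RLE scaling (0.0493), by DESeq2 (0.041) and on log2(TPM + 1) (0.00317) and log2(TPM + 0.1) (0.0108). It shares 741 bases with the same-strand gene BX649560.1. The group's 5 tested genes had a median of 0.58, and Col14a1 lay lowest of those given here at −0.63.

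Type VI collagen forms beaded filaments next to basement membranes, and 4 of its 6 genes were tested with none called by edgeR and 1 (Col6a3) at an unadjusted p under 0.05. DESeq2 called Col6a3 lower. Col6a1 measured 0.50, 5.32, 5.72, 3.83 and 4.72 CPM in Ide+/+, against 2.73, 3.09 and 3.58 CPM in Ide-/- (log2 fold change −0.41, adjusted p = 0.57). Col6a2 measured 0.80, 2.85, 2.81, 1.94 and 3.86 CPM against 1.98, 2.36 and 3.30 CPM (0.01, adjusted p = 0.98). Replicate 1 was the lowest Ide+/+ library in both, and without it Col6a1 passed the test at −0.68 (adjusted p = 0.0364). Col6a3 was ordered the other way: replicate 1 was the highest library at 7.32 CPM, the other Ide+/+ libraries had 3.67, 3.27, 2.59 and 1.39 CPM, and the Ide-/- libraries 1.03, 1.42 and 2.11 CPM. Its log2 fold change of −1.31 ± 0.46 missed the threshold (adjusted p = 0.063) and passed it without Ide+/+ replicate 5 (−1.5, adjusted p = 0.0297). Col6a6 measured 4.11, 10.5, 8.60, 6.01 and 1.93 CPM against 9.55, 11.5 and 9.99 CPM, with overlapping groups (0.68, adjusted p = 0.22). It was called higher on log2(TPM + 1) (0.71, limma adjusted p = 0.0468), where all genes shifted by a median of 0.44.

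The multiplexins carry heparan or chondroitin sulphate chains and end in fragments known as endostatins. Col15a1 measured 0.80, 3.00, 3.02, 2.06 and 1.93 CPM in Ide+/+, against 2.26, 3.66 and 2.93 CPM in Ide-/-. Its log2 fold change was 0.39 (edgeR adjusted p = 0.47). It was called higher on log2(TPM + 1) (0.8, limma adjusted p = 0.0486), where all genes shifted by a median of 0.44. Col18a1 measured 0.20, 1.53, 1.81, 1.65 and 1.72 CPM against 0.64, 0.73 and 0.92 CPM (−0.93, adjusted p = 0.20). Apart from replicate 1, every Ide+/+ library was above every Ide-/- library in Col18a1, and without that replicate it passed the test at −1.18 ± 0.28 (adjusted p = 0.0121). Col18a1 shares 8825 bases with the opposite-strand gene Slc19a1, which had 515 counts against its own 208.

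The remaining collagens did not pass the test. Col8a1, a network collagen of vessel walls, measured 1.43 ± 0.64 CPM (SD, n = 5) in Ide+/+ and 1.05 ± 0.31 CPM (SD, n = 3) in Ide-/-. Among the transmembrane collagens, Col13a1 measured 3.76 ± 1.77 CPM against 5.92 ± 1.78 CPM (log2 fold change 0.61, adjusted p = 0.30) and Col25a1, found in neurons, 0.59 ± 0.41 CPM against 0.32 ± 0.20 CPM. Col26a1 (0.47 ± 0.32 against 0.19 ± 0.06 CPM) and Col28a1 (0.68 ± 0.29 against 0.63 ± 0.16 CPM) were also low in both groups. The fitted log2 fold changes were −0.54 for Col8a1, −1.08 for Col25a1, −1.40 for Col26a1 and −0.20 for Col28a1. None of these genes was called. On log2(TPM + 1), limma called Col13a1 higher (1.48, adjusted p = 0.0167), where all genes shifted by a median of 0.44.

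One library carried much of the spread among the Ide+/+ samples. Replicate 1 was the lowest of the 5 Ide+/+ libraries in 36 of the 44 tested members (81.8%), whereas it was lowest in 36.5% of all tested genes. Endothelial markers followed the same order: the 12 markers summed to 104 CPM in replicate 1 and 308 to 378 CPM in Ide+/+ replicates 2 to 5, and replicate 1 was the lowest Ide+/+ library in 12 of 12. In Ide-/- they summed to 258 to 364 CPM, and 0 of the 12 were called by edgeR, with 0 at an unadjusted p under 0.05 and a median of 0.06. Pericyte and smooth muscle markers summed to 129 CPM in replicate 1, 293 to 543 CPM in the others and 221 to 328 CPM in Ide-/-. Of these 10, 2 were called lower (Acta2 and Tagln, 20.0%, against 10.6% of all tested genes). Of the tested Schwann cell markers, 1 of 4 was higher (25.0%, against 10.4% of all tested genes). Both shares rest on few genes. None of the 8 beta cell and 5 alpha cell markers was called by edgeR, with 1 beta cell and 0 alpha cell markers at an unadjusted p under 0.05. The part of these cells in the members' levels was not tested. Without replicate 1, the test called 3 members higher (Col4a2, Col16a1 and Col27a1, 6.98% against a background of 13.4%) and 6 lower (among them Col18a1, Col4a5, Col6a1, Col7a1 and Lamb3, 14.0% against 13.3%), and the members' median moved from −0.05 to −0.26.

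**Figure D4:**
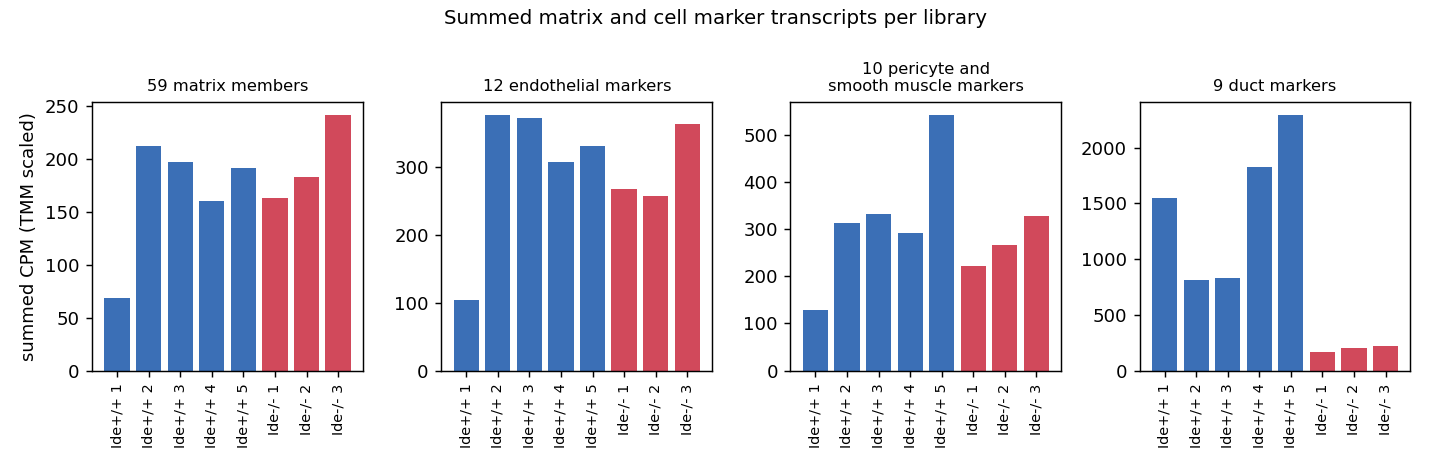
Summed CPM per library of the 59 members and of endothelial, pericyte and smooth muscle, and duct markers, 1 bar per library and each list on its own axis. Ide+/+ replicate 1 is lowest in the member sum (68.1 CPM) and the endothelial sum (104 CPM), and duct markers lie at 165 to 221 CPM in Ide-/- against 812 to 2295 CPM in Ide+/+.

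Per length, the members with the highest mean TPM over all libraries were Col4a1 (5.13), Col13a1 (4.34), Col3a1 (3.92), Col27a1 (3.51), Hspg2 (3.46) and Lamc1 (3.45). Neighbours in this order differed by less than the spread between libraries. Col4a1 itself ran from 1.06 to 9.96 TPM between libraries. As a share of the members' summed TPM, type IV collagens made up 14.3% ± 0.427 (SD, n = 5) in Ide+/+ and 16.4% ± 2.54 (SD, n = 3) in Ide-/-, and laminins 26.7% ± 3.15 and 25.6% ± 2.25. Fibrillar collagens made up 6.67% to 17.8% in Ide+/+ and 18.8% to 23.8% in Ide-/-, with no overlap. Col27a1 alone took 2.63% ± 1.05 and 8.88% ± 3.10, and with it left out the fibrillar share was 10.6% ± 3.78 and 13.2% ± 0.577, within the Ide+/+ spread. Network and anchoring collagens, mostly Col7a1, made up 4.60% to 19.2% in Ide+/+ and 0.619% to 1.55% in Ide-/-, also with no overlap. The beaded filament share was 23.2% in Ide+/+ replicate 1 and 5.11% to 7.73% in the other Ide+/+ libraries, against 4.79% to 5.97% in Ide-/-. These shares are a description with no test.

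**Figure D5:**
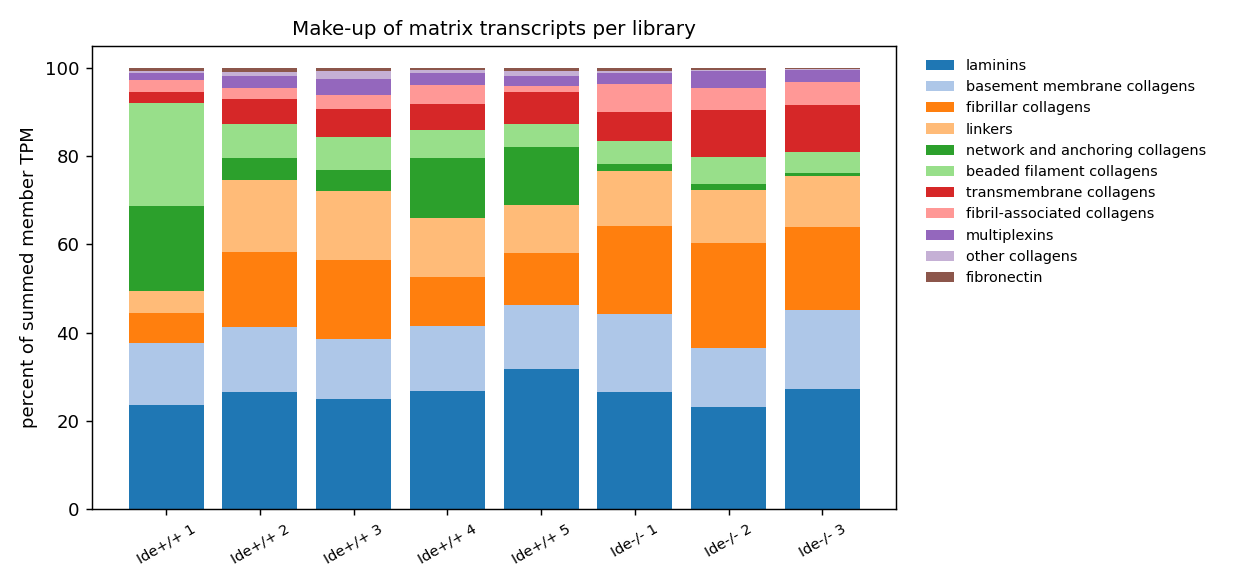
Share of the members' summed TPM taken by each role group in each library, in percent (stacked bars). Laminins and type IV collagens hold similar shares in all libraries, while network and anchoring collagens are at 4.60% to 19.2% in Ide+/+ and at most 1.55% in Ide-/-.

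Ratios of chains within a library do not depend on how libraries are scaled, and 6 were compared as log2 TPM ratios using an exact two-sided permutation of all 56 splits, whose smallest possible p is 0.0179. A single ratio cannot go below an adjusted p of 0.107 over the 6, so a miss here says little. None passed. Col4a1 over Col4a2 was 1.54 ± 0.56 (SD, n = 5) in Ide+/+ and 1.05 ± 0.26 (SD, n = 3) in Ide-/- (exact p = 0.214, adjusted p = 0.321). Col1a1 over Col1a2 was −1.48 ± 0.27 and −1.21 ± 0.19 (exact p = 0.161, adjusted p = 0.321). Lamb2 over Lamb1 was 0.47 ± 0.21 and 0.38 ± 0.15, a difference of −0.09 (exact p = 0.571, adjusted p = 0.686), and Col3a1 over Col4a1 was −0.56 ± 0.55 and −0.43 ± 0.33 (exact p = 0.714, adjusted p = 0.714). Nid2 over Nid1 was −1.11 ± 1.01 and 0.04 ± 0.09 (exact p = 0.143, adjusted p = 0.321), and Lama5 over Lama4 was 0.74 ± 0.81 and −0.15 ± 0.43 (exact p = 0.143, adjusted p = 0.321). TPM ratios also carry the effective lengths, which for Nid2 ran from 1798 to 4740 bases between libraries and for Col4a1 from 2001 to 3299. On expected counts, Col4a1 over Col4a2 was 0.77, 0.08, 0.06, 0.16 and 0.17 with intact Ide and −0.26, −0.31 and −0.28 without it. These groups did not overlap, and the difference of −0.53 had the smallest p the splits allow (exact p = 0.0179, adjusted p = 0.107). The count differences were 0.52 for Nid2 over Nid1 (exact p = 0.0714), 0.0 for Lama5 over Lama4 (exact p = 1.0), 0.39 for Col3a1 over Col4a1 (0.161), 0.26 for Col1a1 over Col1a2 (0.232) and −0.22 for Lamb2 over Lamb1 (0.714).

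Cells bind this matrix through integrins, dystroglycan, syndecans and related receptors, and 27 such genes were examined. Of 25 tested, 6 were lower (24.0%, against 10.6% of all tested genes) and 1 was higher (4.0%, against 10.4%), with a median of −0.31. Itgb4, the β subunit of the hemidesmosome integrin that binds laminin-332, measured 1.5, 2.09, 1.49, 2.95 and 2.36 CPM in Ide+/+, against 0.39, 0.28 and 0.18 CPM in Ide-/- (log2 fold change −2.73 ± 0.41, edgeR adjusted p = 0.0014). Its groups did not overlap. Its partner Itga6 measured 11.5 to 26.6 CPM against 9.88 to 12.9 CPM and did not pass the test (−0.53, adjusted p = 0.18). Sdc1, an epithelial syndecan, fell by 2.84 on the log2 scale, Sdc4 by 1.27 and Itgb6, an epithelial integrin subunit, by 1.98. On log2(TPM + 1), limma did not call Sdc4 (−0.3, adjusted p = 0.43), Itgb6 (0.122) or Itgb4 (0.0638), while Sdc1 kept its call (0.0154). Sdc4 was also not called with endothelial scaling (edgeR adjusted p = 0.242). Without Ide-/- replicate 2 the Sdc1 value was −3.64 and that of Itgb6 −2.75. Itgb6 lost its call without Ide-/- replicate 1 (adjusted p = 0.0613) or 3 (0.0547). Sdc2 (−0.58) and Dag1, dystroglycan (−0.56), were the other lower genes, near the threshold at adjusted p = 0.045 and 0.046. Without Ide-/- replicate 1 or 3 the receptors called lower numbered 3, beside the 25 tested in the main fit. Of all tested genes, 5.71% and 5.0% were called lower in those fits. Itga4, a leukocyte integrin subunit, was the higher gene at 0.81 ± 0.24 (adjusted p = 0.036), and this call was lost when Ide+/+ replicate 4 (0.0662) or 5 (0.065) was omitted, and likewise for each of Ide-/- replicates 1 (0.11), 2 (0.123) and 3 (0.0809). Of 11 macrophage markers, 9 were lower (81.8%, against 10.6% of all tested genes). The part of these cells in the Itga4 value was not tested.

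Collagen chains are hydroxylated and folded in the endoplasmic reticulum and trimmed and cross-linked outside the cell. Of 23 tested genes of these steps, 3 rose (13.0%, against 10.4% of all tested genes) and 2 fell (8.7%, against 10.6%), with a median of −0.27. Bmp1, which cuts procollagen ends, measured 9.72, 10.9, 10.2, 9.84 and 6.22 CPM in Ide+/+, against 23.1, 20.1 and 24.4 CPM in Ide-/- (log2 fold change 1.25 ± 0.20, edgeR adjusted p = 0.0017). Loxl2, a lysyl oxidase that cross-links type IV collagen, measured 3.51, 4.81, 4.98, 4.54 and 1.82 CPM against 8.77, 8.09 and 9.35 CPM (1.11 ± 0.27, adjusted p = 0.014). The groups did not overlap in either gene, and the Loxl2 call was lost without Ide-/- replicate 1 (adjusted p = 0.052) or 3 (0.0596). P3h3, a prolyl 3-hydroxylase family gene, was higher by 0.89 (adjusted p = 0.043). That call was lost when Ide+/+ replicate 2 (0.0615), 3 (0.0606), 4 (0.077) or 5 (0.0583) or Ide-/- replicate 1 (0.0928), 2 (0.113) or 3 (0.143) was left out. Ppib (−2.40) and P4hb (−1.55), which also serve the folding of other secreted proteins, were lower. P4hb measured 397 to 965 CPM in Ide+/+, against 171 to 276 CPM in Ide-/-. The P4hb call was lost without Ide-/- replicate 2 (0.0813) or 3 (0.0855), and on deposited TPM its difference was 0.28 on the positive side. The part of the acinar RNA in these values was not tested. Serpinh1, the collagen chaperone, did not pass the test (−0.24).

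Among 24 tested genes of other matrix proteins, 1 rose (4.17%, against 10.4% of all tested genes) and 3 fell (12.5%, against 10.6%), with a median of −0.26. Emilin1, an elastic fibre glycoprotein, measured 2.36 to 9.06 CPM in Ide+/+, against 13.5 to 18.7 CPM in Ide-/- (log2 fold change 1.28 ± 0.31, edgeR adjusted p = 0.015; 0.0726 without Ide-/- replicate 1). Efemp1, a fibulin, fell by 3.15, Vtn, vitronectin, by 2.81 and Smoc1, a basement membrane glycoprotein, by 1.31 on the log2 scale. On log2(TPM + 1), limma did not call Smoc1 (−0.18, adjusted p = 0.445). Vtn was at 108 CPM in Ide+/+ replicate 1 and 19.4 to 28.5 CPM in the other 4, and without that replicate its log2 fold change was −2.02. Sparc, which binds collagen, and Agrn, the proteoglycan agrin, did not pass the test, at 0.63 and −0.27. Of 16 tested proteases and inhibitors, 2 fell (12.5%, against 10.6% of all tested genes), with a median of −0.44. They were Adamts9, a proteoglycan-cutting protease, at −2.07 ± 0.50 (adjusted p = 0.014), and Mmp7, a matrix protease of epithelia, at −3.96 ± 1.0 (adjusted p = 0.017). Leaving out Ide-/- replicate 1 or 2 ended the Adamts9 call (adjusted p = 0.0651 and 0.0552), and leaving out Ide-/- replicate 1, 2 or 3 ended the Mmp7 call (0.055, 0.076 and 0.0625). Mmp7 measured 0.10, 0.81, 0.89, 2.00 and 4.51 CPM in Ide+/+ replicates 1 to 5, against 0.14, 0.04 and 0.09 CPM in Ide-/-. The groups thus overlapped, and limma-voom did not call Mmp7 (adjusted p = 0.0613). Its log2 fold change stood at −4.64 with Ide-/- replicate 1 left out and at −3.29 with Ide+/+ replicate 5 left out. Over the 4 lists together, 5 of 88 tested genes were higher (5.68%, against 10.4% of all tested genes) and 13 were lower (14.8%, against 10.6%), with a median of −0.31 against −0.01 over all tested genes. Without Ide-/- replicate 2 or 3 the lower genes numbered 8, beside the 88 tested in the main fit. Of all tested genes, 4.75% and 5.0% were called lower in those fits. Leaving out Ide+/+ replicate 4 or 5 or Ide-/- replicate 2 left 3 higher genes (all tested genes: 6.2%, 8.91% and 4.61%). Leaving out Ide-/- replicate 3 left 2 (all tested genes: 4.07%), and with Ide-/- replicate 1 left out 1 was called (5.08%). The split was 3 higher and 14 lower with granule scaling, where 3.36% and 12.5% of all tested genes were called. It was 0 and 4 with endothelial scaling (all tested genes: 1.78% and 2.66%). On log2(TPM + 1) it was 15 and 5 (29.2% and 2.05%). The duct and acinar markers were lower in the same libraries, as given above, and their part in these counts was not tested.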

How the data were processed

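RNA from 8 libraries of hand-picked islets was sequenced, 5 Ide+/+ and 3 Ide-/-, grouped by the genotype in the labels. Reads were aligned with STAR 2.7.1a and quantified with RSEM 1.3.1 on GRCm38, per the submitters' processing notes. No strand setting or annotation release is given in the sources used here. For each of 55487 genes the authors deposited an expected count, RSEM's unnormalized estimate of the reads of a gene, in which reads that match several genes are divided among them. They also deposited TPM, a share of the library after division by each gene's effective length. Per the labels' protocols, libraries were made from 100 ng of RNA each (RIN over 6.5).

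Symbols came from GENCODE M21, which matched 55227 identifiers, and 260 were not matched. Expected counts were rounded to whole numbers, filtered with filterByExpr (minimum count 10, minimum total 15), scaled with TMM and tested with edgeR 4.0.16's quasi-likelihood test in R 4.3.3. Benjamini-Hochberg adjustment ran over 16266 genes, with calls at an adjusted p under 0.05. Standard errors are the log2 fold change over the square root of F. Chain ratios used log2 TPM with a pseudocount of 0.01 and an exact permutation test. In simulated counts for 5 and 3 libraries (15898 genes tested), 20.8% of 2-fold and 79.2% of 4-fold changes were called. The simulation gave both groups the same mean profile apart from the changed genes, so it lacks their difference in acinar RNA. Its changed genes were of all levels, so these rates are not those of the low-count members.

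Genes named were the called members, a fixed set of core members, the 2 members of each role group with the highest mean TPM and up to 4 called genes per pathway list and direction by smallest p (otherwise the 2 with the highest mean TPM). Other genes named with values, among them Lama3, Col4a3, Col4a4, Col4a5, Col5a3, Col11a2, Col14a1, Itga6, Sdc2, Dag1, Serpinh1, Sparc and Agrn, were chosen after their values were seen. Members, lists and tests were chosen with earlier results of these data known. Alternatives were RLE scaling, TMM without acinar genes, scaling to secretory granule or endothelial genes, no low-count filter, DESeq2 1.42.0, limma-voom (limma 3.58.1), limma on log2(TPM + 1) and log2(TPM + 0.1), each library left out, and a replicate block. Replicate numbers did not pair the samples across genotypes, and every deposited column used belongs to 1 sample. The values of some genes are not reported here.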

Additional observations from a re-analysis of the deposited data

Results flagged for a closer look

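In the 5 Ide+/+ libraries, 42 results were examined for a sample far from the others, and 2 stood out. Chance marks about 1 in 20 such groups. Col18a1, a multiplexin collagen, measured 0.20 CPM in Ide+/+ replicate 1 and 1.53 to 1.81 CPM in the remaining 4. The log2 TPM ratio of Col1a1 over Col1a2, the chains of type I collagen, was −1.0 in Ide+/+ replicate 1 and −1.65 to −1.55 in the others. In that replicate the ratio rests on 6 Col1a1 and 11 Col1a2 counts, and the Col18a1 value on 2 counts.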

How the results depend on the processing

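The member counts, 2 higher and 3 lower, moved with the scaling and the library set. The count called higher was 1 with secretory granule scaling, 1 with endothelial scaling, 13 on log2(TPM + 1), 6 on log2(TPM + 0.1) and 1 to 3 with a library left out. The count called lower was 3 to 6 with a library left out, at 6 without Ide+/+ replicate 1, and 2 to 4 otherwise. The pathway genes, 5 higher and 13 lower, gave 3 and 14 with granule scaling, 0 and 4 with endothelial scaling, 15 and 5 on log2(TPM + 1), 8 and 4 on log2(TPM + 0.1), and 1 to 6 higher and 8 to 18 lower with a library left out. The median log2 fold change of all genes was −0.25 with granule scaling and −0.33 with endothelial scaling. It was 0.44 on log2(TPM + 1) and 0.82 on log2(TPM + 0.1). The all-gene calls were 29.2% higher and 2.05% lower on log2(TPM + 1), and 22.3% and 2.06% on log2(TPM + 0.1). They were 3.36% and 12.5% with granule scaling, and 1.78% and 2.66% with endothelial scaling. With a library left out they ran from 4.07% to 13.4% higher and from 4.75% to 13.3% lower. The difference in laminin share was −1.12 percentage points on TPM and −6.53 on expected counts. On log2(TPM + 1) and log2(TPM + 0.1), Lama4 turned to 1.35 and 2.02 and P4hb to 0.28 and 0.28. The cause was not tested. Summing Ide+/+ replicates 2 and 3 into 1 library, an alternative chosen after seeing the data, gave 2 higher and 3 lower members, the same 5 genes. Among the pathway genes it gave 4 higher and 11 lower, where 8.59% and 10.3% of all tested genes were called.

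Same-numbered libraries of the 2 genotypes did not deviate together (Pearson r of 0.0485, 0.00918 and −0.0934 across genes for numbers 1 to 3), so the numbers were not taken to pair the samples. With the replicate number as a block over replicates 1 to 3, 1 member was higher (2.27%, against 2.99% of all tested genes). In that fit 3 members were lower (6.82%, against 4.02%), and among the pathway genes 1 was higher and 6 were lower.

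Low counts limit the low members: 15 of 59 failed the low-count filter. Ide+/+ replicate 1 holds 680 member counts out of 24620301, while Ide-/- replicate 3 holds 2640 out of 7143415. Intervals cover counting error only, since they come from counts pooled over the libraries of each group. The labels describe no molecular identifiers.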
